A study of Mus musculus with 24 samples.

Results

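The transcripts described here are 8 genes that carry out or restrain apoptosis and necroptosis, read in the lungs and retinas of newborn mice raised in room air or in hyperoxia. They were taken by symbol, from a list of names and not by a cut on their values. Earlier results of these data were known when the list was chosen. Each of the 8 matched 1 row of the 36109 genes in the lung table and 1 row of the 36595 genes in the retina table. All 8 passed the filter on low counts, which left 16819 lung genes and 19173 retina genes to test.

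Both programs can start at the same receptors. Caspase-8 (Casp8), once activated on a death receptor complex, cleaves executioner caspases and the kinases RIPK1 and RIPK3. Where caspase-8 is held back, RIPK1 can engage RIPK3, which phosphorylates MLKL, and MLKL then breaks the plasma membrane. The mitochondrial arm turns on BAK (Bak1), a pore former of the outer membrane, which BCL-2 (Bcl2) and BCL-XL (Bcl2l1) hold in check, and BIM (Bcl2l11), a BH3-only protein, relieves that check. MLKL and gasdermin D (Gsdmd), the pore former of pyroptosis, both end in a ruptured membrane, and Gsdmd is the gene that was knocked out in these mice.

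The study kept WT and GSDMD-KO littermates in room air (RA) or in oxygen and asked what loss of GSDMD changes in the injured lung and retina. Lungs came from pups in 85% or 21% O2 from postnatal day 1 to 14 and were taken on day 15. Retinas came from pups in 75% O2 from day 7 to 12 that then recovered in room air, or from pups kept in room air, and were taken on day 18. Each tissue had 4 groups of 3 mice, named WT-RA, WT-O2, KO-RA and KO-O2. WT mice carried no engineered allele, and the GSDMD-KO was a whole-body, homozygous allele made by CRISPR/Cas9, a short deletion in exon 5 on a C57/B6 background. RNA was from the whole tissue, so fewer cells of a type and less RNA per cell cannot be told apart.

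Library totals ran from 28763661 to 29604254 counts in the lung and from 24863257 to 29093035 counts in the retina. Gsdmd was lower in every KO lung (11.7 to 24.8 CPM, read counts normalised to library size with TMM factors) than in every WT lung (32.1 to 42.3 CPM). In the retina it was low and overlapped, with 0.419 to 5.70 CPM in WT mice and 0.636 to 2.95 CPM in knockouts, so the retina transcript did not separate the genotypes. By qRT-PCR the study found almost no Gsdmd expression in knockout lungs and retinas, and more with hyperoxia in WT mice. Here WT-O2 lungs held 32.1 to 36.4 CPM of it and WT-RA lungs 40.6 to 42.3 CPM. The 8 lung epithelium markers summed to at least 19953 CPM in each lung and the 6 rod markers to at least 49198 CPM in each retina. Lens markers (6 genes, crystallins among them) stood at 15838 CPM in WT-RA replicate 2 and 54367 CPM in WT-RA replicate 3. They stood at 21866 CPM in KO-RA replicate 3 and between 2.91 and 265 CPM in the other 9 retinas. Retina log2 fold changes of called genes are therefore also given without those 3 libraries, which leaves only replicate 1 in WT-RA. Among lungs, Y-linked transcripts were present in no WT-RA, 1 WT-O2, 2 KO-RA and all 3 KO-O2 mice. Among retinas they were present in all RA mice and in 1 mouse of each O2 group. Sex therefore went in part with genotype and with exposure in the lung, and with exposure in the retina.

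In the GRCm38 annotation Casp8 lies at chr1:58795374-58847503 and Bcl2 at chr1:106538178-106714274. Bcl2l11 lies at chr2:128126038-128162547 and Bcl2l1 at chr2:152780668-152831728. Mlkl is at chr8:111311797-111338177, Ripk1 at chr13:34002363-34037147, Ripk3 at chr14:55784995-55788865 and Bak1 at chr17:27019810-27029009. Exons of Ripk1 overlap Serpinb6a on the opposite strand and Gm17084 on its own, exons of Bak1 overlap Ggnbp1 on the opposite strand, and exons of Bcl2 overlap D630008O14Rik on the opposite strand. Whether the counting used strand is not given in the sources used here, so shared reads could add to the levels of these 3 genes.

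The 250 bases before the start site are shown for the genes with the largest responses, Mlkl and Bcl2l11 in the lung and Ripk3 in the retina. They are RefSeq windows of GRCm38.p6, in which all 8 genes had at least 1 window and 12 windows in total. Capitals mark matches, on either strand, to the core letters of an interferon response element (GAAANNGAA), a GAS element (TTCNNNGAA), an NF-kB site (GGGANNTTC), a forkhead site (GTAAACA), an AP-1 site (TGANTCA) or an E-box (CACGTG).
Ripk3, chr14:55788858-55789107, minus strand: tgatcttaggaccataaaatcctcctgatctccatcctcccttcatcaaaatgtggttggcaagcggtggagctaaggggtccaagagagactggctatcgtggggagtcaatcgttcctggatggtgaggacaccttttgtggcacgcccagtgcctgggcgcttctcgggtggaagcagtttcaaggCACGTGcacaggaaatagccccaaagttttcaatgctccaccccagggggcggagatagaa
Mlkl, chr8:111338206-111338455, minus strand: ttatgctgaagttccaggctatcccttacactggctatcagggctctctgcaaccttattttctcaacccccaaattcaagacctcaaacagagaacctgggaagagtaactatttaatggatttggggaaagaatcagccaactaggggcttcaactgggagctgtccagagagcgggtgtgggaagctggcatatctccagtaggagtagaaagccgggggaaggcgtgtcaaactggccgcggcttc
Bcl2l11, chr2:128125788-128126037, plus strand: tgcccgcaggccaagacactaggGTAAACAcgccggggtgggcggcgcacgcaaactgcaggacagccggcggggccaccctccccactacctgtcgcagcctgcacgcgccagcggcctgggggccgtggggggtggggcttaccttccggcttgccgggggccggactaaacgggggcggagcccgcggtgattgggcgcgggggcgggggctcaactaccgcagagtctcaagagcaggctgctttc
The Ripk3 window held an E-box that began 61 bases before the start site, a match present in 6.02% of 32851 promoter windows of the same length. The Bcl2l11 window shown, the first of 2 for this gene, held a forkhead match that began 227 bases before the start site, present in 3.17% of the windows. The second Bcl2l11 window, chr2:128127325-128127574 and not shown, held none of the 6 motifs. The Mlkl window held none of the 6 motifs, which says only that these letters are not in these 250 bases. No marked match overlapped another. The GC box (GGGCGG), left in lower case, was found 3 times in the Bcl2l11 window shown, 2 times in the second and 1 time in the Ripk3 window, and at least 1 time in 32.7% of all windows. The interferon, GAS, NF-kB and AP-1 letters were found in 7.13%, 7.02%, 3.23% and 6.75% of all windows.

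Hyperoxia changed most of these transcripts in the lung. In WT lungs Ripk3, Mlkl, Bak1, Bcl2 and Bcl2l1 rose and Casp8 and Bcl2l11 fell, so that 7 of the 8 passed an adjusted p under 0.1 (edgeR's quasi-likelihood test, Benjamini-Hochberg adjustment over all tested genes). Hyperoxia is a broad stimulus in this tissue, since 49.2% of all tested genes passed, 24.5% higher and 24.7% lower. In GSDMD-KO lungs Ripk3, Mlkl, Bak1 and Bcl2 rose and Bcl2l11 fell, 5 of 8, where 46.7% of all genes passed, 23.3% higher and 23.4% lower. Only Mlkl and Bcl2l11 in WT lungs and Mlkl in GSDMD-KO lungs also changed by at least 2-fold, where 11.6% and 10.6% of all genes did. The RA and O2 groups did not overlap for 7 of 8 genes in WT and 4 of 8 in GSDMD-KO lungs, against 49.8% and 52.4% of all genes.

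**Figure D1:**
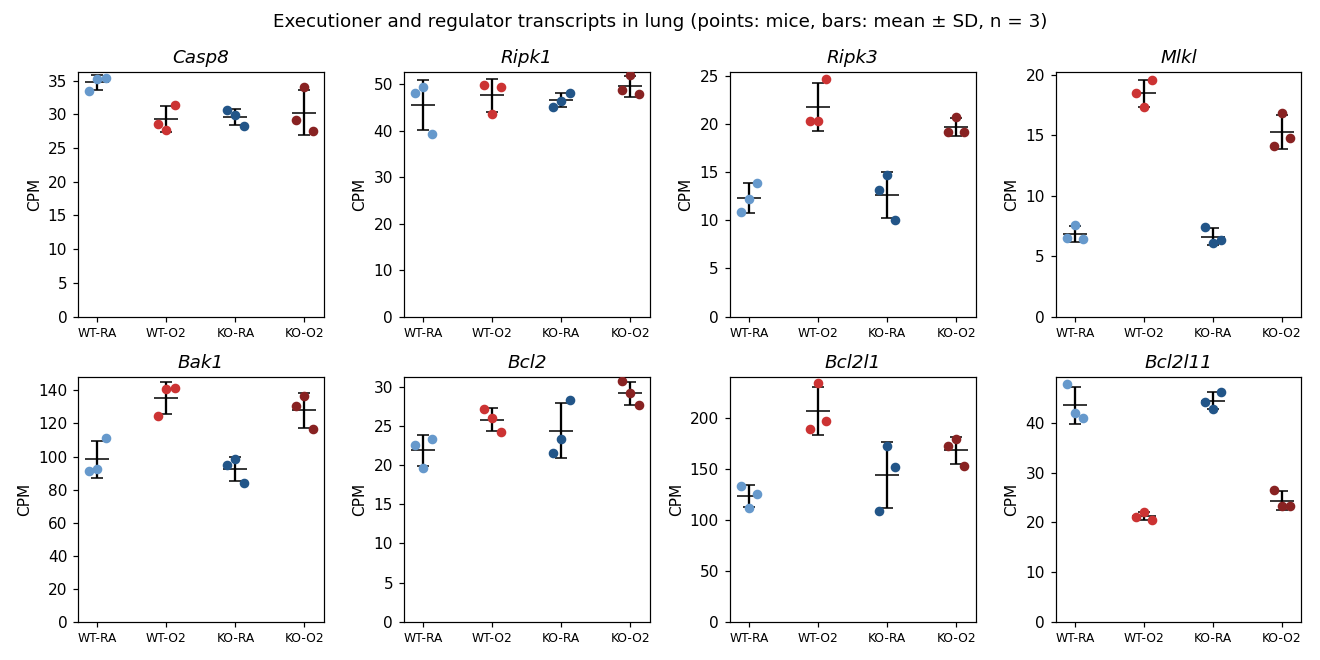
CPM of each gene in each of 12 lungs, with 1 panel per gene and a y axis that starts at 0. Points are mice and bars are the mean ± SD of 3 mice; the Mlkl and Ripk3 points of both O2 groups lie above those of both RA groups, and the Bcl2l11 points lie below.

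Mlkl, the pore former of necroptosis, was at 6.46, 7.57 and 6.43 CPM in WT-RA lungs and at 18.5, 17.3 and 19.5 CPM in WT-O2 lungs. In GSDMD-KO lungs it was at 7.41, 6.07 and 6.31 CPM in RA and at 14.1, 16.9 and 14.8 CPM in O2. Every O2 lung exceeded every RA lung of either genotype. Mlkl rose 2.70-fold in WT (log2 fold change 1.43, SE 0.12, adjusted p = 4.7e-07) and 2.31-fold in GSDMD-KO lungs (1.21, SE 0.12, adjusted p = 3.0e-06). It passed in all 23 alternative analyses of either genotype that gave it a test.

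Ripk3, the kinase that activates MLKL, was at 10.8, 12.3 and 13.9 CPM in WT-RA and 20.3, 20.4 and 24.7 CPM in WT-O2 lungs. The GSDMD-KO lungs held 13.2, 14.8 and 10.0 CPM in RA and 19.2, 20.8 and 19.1 CPM in O2. The groups did not overlap in either genotype. Ripk3 rose by a log2 fold change of 0.82 (SE 0.14, adjusted p = 0.00031) in WT and 0.64 (SE 0.14, adjusted p = 0.0023) in GSDMD-KO lungs.

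The summed level of 10 macrophage markers moved with these rises. WT-RA lungs held 345 to 416 CPM of it and WT-O2 lungs 493 to 541 CPM, while KO-RA lungs held 330 to 334 CPM and KO-O2 lungs 406 to 487 CPM. Of the 10 markers 7 rose and 1 fell in WT and 8 rose and 2 fell in GSDMD-KO lungs, with C1qa, C1qb and Cd68 higher and Ptprc lower in the O2 groups on average. With the summed level as a covariate, the log2 fold change of Mlkl was 1.13 in WT (adjusted p = 0.0059) and 0.88 in GSDMD-KO lungs (adjusted p = 0.033). That of Ripk3 was 0.84 in WT (adjusted p = 0.081) and 0.66 in GSDMD-KO lungs, where the call was lost (adjusted p = 0.20). Over all 16819 tested genes, the passes with this covariate fell from 8268 to 3143 in WT and from 7857 to 2425 in GSDMD-KO lungs. The part of macrophage number in these rises was not tested.

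Casp8, the protease that opposes necroptosis, moved the other way in WT lungs. It was at 33.4, 35.3 and 35.4 CPM in WT-RA and at 28.6, 27.7 and 31.4 CPM in WT-O2 lungs, groups that did not overlap. Its log2 fold change was -0.25 (SE 0.090, adjusted p = 0.039). The GSDMD-KO lungs held 30.6, 29.8 and 28.3 CPM in RA and 29.2, 34.0 and 27.5 CPM in O2, which overlapped (adjusted p = 0.81). The WT decrease did not pass without WT-RA replicate 2 (adjusted p = 0.101), WT-O2 replicate 1 (0.103) or WT-O2 replicate 2 (0.125). It was -0.01 with the mean log2 level of the erythroid markers as a covariate. Their summed level was 15746 to 18149 CPM in WT-RA and 2920 to 4152 CPM in WT-O2 lungs, without overlap. Within WT lungs this covariate is therefore hard to separate from exposure. With it, the passes over all 16819 tested genes in WT lungs fell from 8268 to 4055. The part of erythroid content in the Casp8 decrease was not tested. Ripk1, the kinase scaffold shared by both outcomes, lay between 39.4 and 52.1 CPM in all 12 lungs, with overlapping groups and adjusted p = 0.61 in WT and 0.47 in GSDMD-KO mice.

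The 4 members of the BCL-2 family all passed in WT lungs. Bak1, the pore former, was at 91.0, 92.7 and 111.4 CPM in WT-RA and 124.5, 140.6 and 141.3 CPM in WT-O2 lungs. It was at 94.7, 98.4 and 84.2 CPM in KO-RA and 130.3, 136.9 and 116.5 CPM in KO-O2 lungs. No O2 lung fell among the RA lungs. Bak1 rose by a log2 fold change of 0.46 (SE 0.098, adjusted p = 0.0017) in WT and 0.47 (SE 0.098, adjusted p = 0.0016) in GSDMD-KO lungs. With the macrophage covariate it was 0.53 and 0.54 and passed in neither (adjusted p = 0.11 and 0.13).

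Bcl2l11, the BH3-only protein BIM, fell in both genotypes. It was at 47.8, 41.9 and 40.9 CPM in WT-RA and 21.1, 22.2 and 20.5 CPM in WT-O2 lungs. The GSDMD-KO lungs held 44.3, 42.8 and 46.2 CPM in RA and 26.6, 23.2 and 23.2 CPM in O2. The O2 lungs of both genotypes lay far below the RA lungs. The log2 fold change was -1.03 (SE 0.087, adjusted p = 4.9e-07) in WT, a 2.05-fold lower level, and -0.87 (SE 0.087, adjusted p = 2.9e-06) in GSDMD-KO lungs, and it passed in all 23 alternative analyses of either genotype that gave it a test. The sum of 8 lymphocyte markers was lower too. RA lungs held 187 to 201 CPM (WT) and 126 to 209 CPM (KO), O2 lungs 48.9 to 56.5 CPM (WT) and 47.2 to 56.1 CPM (KO), with 8 of 8 markers lower at an adjusted p under 0.1 in WT and 7 of 8 in GSDMD-KO lungs. Their part in the Bcl2l11 decrease was not tested.

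Bcl2l1, which encodes the pro-survival BCL-XL, was at 133.6, 112.0 and 125.8 CPM in WT-RA and 189.8, 234.2 and 197.2 CPM in WT-O2 lungs. The 3 WT-O2 lungs were the highest of all 12. It rose by a log2 fold change of 0.74 (SE 0.14, adjusted p = 0.00093) in WT mice. The GSDMD-KO lungs held 109.2, 172.5 and 152.3 CPM in RA and 172.5, 179.5 and 153.4 CPM in O2, and KO-RA replicate 2 was level with KO-O2 replicate 1 (adjusted p = 0.24). Without KO-RA replicate 2 the increase in GSDMD-KO lungs was 0.37 and passed (adjusted p = 0.062), and with the macrophage covariate the increase in WT lungs was 0.73 and did not (adjusted p = 0.14).

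Bcl2, its relative, was at 22.6, 19.6 and 23.4 CPM in WT-RA and 27.1, 26.0 and 24.3 CPM in WT-O2 lungs. The GSDMD-KO lungs held 21.5, 23.4 and 28.3 CPM in RA and 30.7, 29.2 and 27.7 CPM in O2, where KO-RA replicate 3 exceeded KO-O2 replicate 3. The log2 fold changes were 0.24 (SE 0.11, adjusted p = 0.090) and 0.26 (SE 0.11, adjusted p = 0.069). These are the weakest of the lung calls. The WT call was lost in 12 of 23 alternatives, among them leaving out WT-RA replicate 1 or 2, WT-O2 replicate 1 or 2, KO-RA replicate 2 or KO-O2 replicate 2 (adjusted p = 0.10 to 0.29). The GSDMD-KO call was lost in 6, among them leaving out KO-RA replicate 1 or 2 or KO-O2 replicate 1 or 2 (adjusted p = 0.11 to 0.25).

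**Figure D2:**
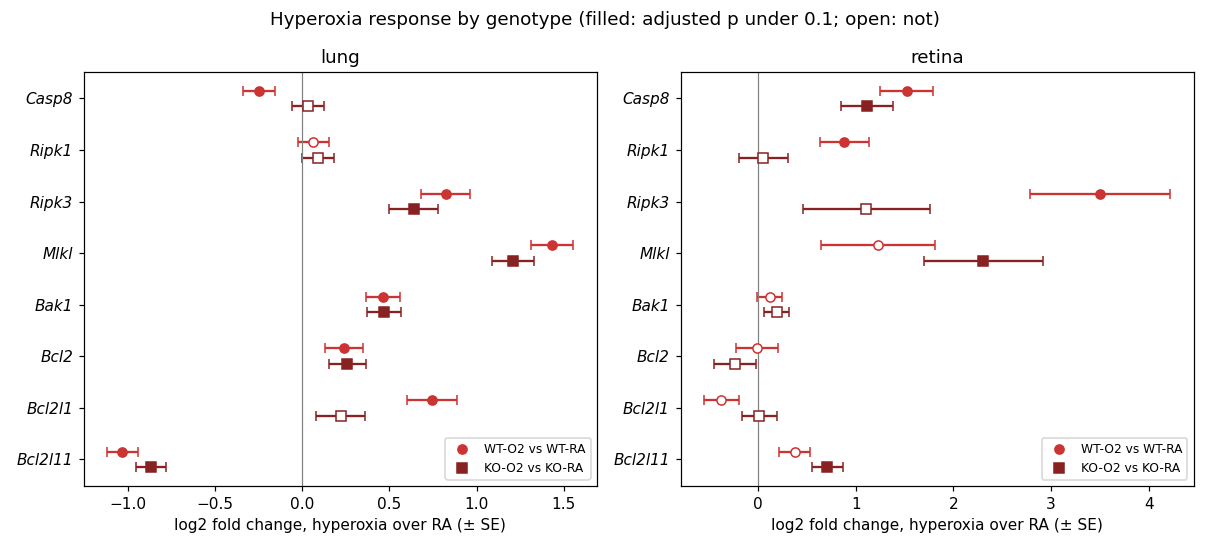
Log2 fold change of hyperoxia over RA for each gene (x axis, ± SE) in lung and retina, with circles for WT and squares for GSDMD-KO mice and filled symbols for an adjusted p under 0.1. In the lung Mlkl reaches 1.43 and Bcl2l11 -1.03 in WT mice; in the retina Ripk3 reaches 3.50 with an SE of 0.71.

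The counts of surrounding genes in the lung are read beside the background, 24.5% of all genes higher and 24.7% lower in WT and 23.3% and 23.4% in GSDMD-KO lungs. A call in WT or GSDMD-KO lungs alone is not a difference between genotypes, which is tested below. Both other pore formers rose. Bax rose by 1.50 (SE 0.11) in WT and 1.46 (SE 0.11) in GSDMD-KO lungs on the log2 scale and Bok by 0.86 and 0.79 (SE 0.18 in both), 2 of 2 in each genotype. The BH3-only relatives split: of 7 tested, 3 rose and 2 fell in WT lungs and 2 rose and 1 fell in GSDMD-KO lungs. Bmf fell with Bcl2l11, by 1.00 in both genotypes on the log2 scale. Bid, the substrate that links caspase-8 to mitochondria, rose by 0.70 in WT and 0.77 in GSDMD-KO lungs, and Pmaip1, a p53 target, by 0.79 and 1.06. Of 5 tested pro-survival relatives 0 passed in WT lungs (edgeR, with 0 at an unadjusted p under 0.05) and 3 rose in GSDMD-KO lungs, Mcl1 by 0.22 and the A1 genes Bcl2a1b and Bcl2a1d by 0.67 and 0.53. The A1 genes are near-identical copies, so reads may be split among them.

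Upstream in the lung, 5 of 21 tested genes of the death receptor complexes rose and 6 fell in each genotype, a share close to that of all genes (WT 49.2%, GSDMD-KO 46.7%). Tnfsf10, the ligand TRAIL, fell by 1.75 in WT and 1.38 in GSDMD-KO lungs, while its receptor gene Tnfrsf10b rose by 1.48 and 1.73 and the ubiquitin editor Tnfaip3 by 0.89 and 1.39 (all adjusted p at most 0.0012). Of 7 triggers and regulators of necroptosis, 4 rose in WT and 3 in GSDMD-KO lungs, and 0 fell. Tlr4, a receptor that reaches RIPK3 through TRIF, rose by 0.97 and 0.81, Ticam1, which encodes TRIF, by 0.32 and 0.21, Pgam5 by 0.34 in WT lungs, and Zbp1, a nucleic acid sensor that binds RIPK3, by 0.58 in WT and 0.95 in GSDMD-KO lungs. Downstream, of 13 genes of the apoptosome and the executioner caspases 1 rose and 3 fell in WT lungs and 4 rose and 5 fell in GSDMD-KO lungs, the WT share below and the GSDMD-KO share above that background. Casp6 fell by 0.82 and 0.70 and Casp9 by 0.43 and 0.31, while Aifm1 rose by 0.27 in WT and 0.32 in GSDMD-KO lungs and Apaf1 by 0.41 in GSDMD-KO lungs. The median log2 fold change of the 8 genes themselves was 0.35 in WT and 0.24 in GSDMD-KO lungs, beside -0.01 over all tested genes in both.

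Genotype left no call among the 8 genes in the lung. Between KO-O2 and WT-O2 lungs 0 of 8 passed with edgeR, DESeq2 or limma's voom. Of all 16819 genes, 7 (0.0416%) passed with edgeR, 87 with DESeq2 and 3 with voom. At an unadjusted p under 0.05 there were 2, Mlkl at -0.28 (SE 0.12, adjusted p = 0.76) and Bcl2l11 at 0.19 (SE 0.088, adjusted p = 0.79), beside 6.21% of all genes. The groups did not overlap for these 2 or for Bcl2 and Bcl2l1, 4 of 8, against 12.2% of all genes. Bcl2l1 was lower in KO-O2 than in WT-O2 lungs by -0.30 on the log2 scale (SE 0.14, adjusted p = 0.81). Erythroid markers were also unequal there, at 2920 to 4152 CPM in WT-O2 lungs and 26283, 29921 and 5969 CPM in KO-O2 replicates 1 to 3, and their part in these differences was not tested.

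Between KO-RA and WT-RA lungs 0 of 8 passed with edgeR, DESeq2 or voom. Of all 16819 genes, 82 (0.488%) passed with edgeR, 418 with DESeq2 and 83 with voom. Casp8 was at an unadjusted p under 0.05 (10.5% of all genes) and its groups did not overlap (15.2% of all genes), with a log2 fold change of -0.23 (SE 0.090, adjusted p = 0.37). Of the surrounding genes Tnfrsf1b, the second TNF receptor, was lower in KO-RA lungs by -0.42 (SE 0.083, adjusted p = 0.064). The interaction, the hyperoxia response of GSDMD-KO less that of WT mice, passed for 0 of 8 genes with any of the 3 tools. Over all genes it passed for 0.00595% with edgeR, for 110 genes with DESeq2 and for 0 with voom. At an unadjusted p under 0.05 there were 2 of 8, against 6.72% of all genes: Bcl2l1 at -0.52 (SE 0.20, adjusted p = 0.67) and Casp8 at 0.28 (SE 0.13, adjusted p = 0.73). The passes of Casp8 and Bcl2l1 in WT but not in GSDMD-KO lungs are thus not shown to differ by genotype. Of the surrounding lists, the interaction passed for 0 of 21 death receptor, 7 necroptosis, 7 BH3-only, 5 pro-survival and 13 apoptosome genes. None of these passed between KO-O2 and WT-O2 lungs. Their calls in WT or GSDMD-KO lungs alone are likewise not shown to differ by genotype. The 5 pro-survival relatives had a median log2 fold change of -0.41 between KO-RA and WT-RA lungs, and 0 passed.

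Levels of the 8 genes in the retina are set beside those of the lung. In WT-RA mice, per kilobase of the median protein-coding transcript, Bcl2l1 stood at 37.4 CPM in the retina and 51.2 CPM in the lung and Bak1 at 15.4 and 59.8 CPM. The other 6 genes were at 0.155 to 2.84 CPM per kilobase in the retina and 3.43 to 18.4 in the lung. Bcl2l1 and Bak1 were the 2 highest of the 8 in both tissues. The lowest was Ripk3 in the retina and Mlkl in the lung. The tables were normalized separately, so levels across tissues are side by side and not tested.

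With hyperoxia and recovery, Casp8, Ripk1 and Ripk3 rose in WT retinas, 3 of 8 at an adjusted p under 0.1, beside 5.16% of all genes (3.11% higher, 2.05% lower). In GSDMD-KO retinas Casp8, Mlkl and Bcl2l11 rose, 3 of 8, beside 7.82% (4.38% higher, 3.44% lower). Of these, Casp8 and Ripk3 in WT and Casp8 and Mlkl in GSDMD-KO retinas also changed by at least 2-fold, where 2.04% and 2.19% of all genes did. The groups did not overlap for 6 of 8 genes in WT and 3 of 8 in GSDMD-KO retinas, against 24.0% and 26.2% of all genes. None of the 8 fell at that threshold. These retinal calls depended on single libraries: 1 gene passed in WT without WT-RA replicate 1 or WT-O2 replicate 1, and in GSDMD-KO retinas 1 passed without KO-RA replicate 1 or 3 and 0 without KO-O2 replicate 2. Over all tested genes, 382 passed in WT without WT-RA replicate 1 and 401 without WT-O2 replicate 1, against 990 with every library. For the GSDMD-KO fits the passes over all genes are not given here, so those losses are not read as particular to the 8. Leaving out the 3 lens-rich retinas, a choice made after seeing the marker levels, keeps only replicate 1 of WT-RA. For that fit only log2 fold changes are given below. With all 12 retinas the median log2 fold change of the 8 was 0.63 in WT and 0.45 in GSDMD-KO retinas, beside less than 0.01 over all genes.

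**Figure D3:**
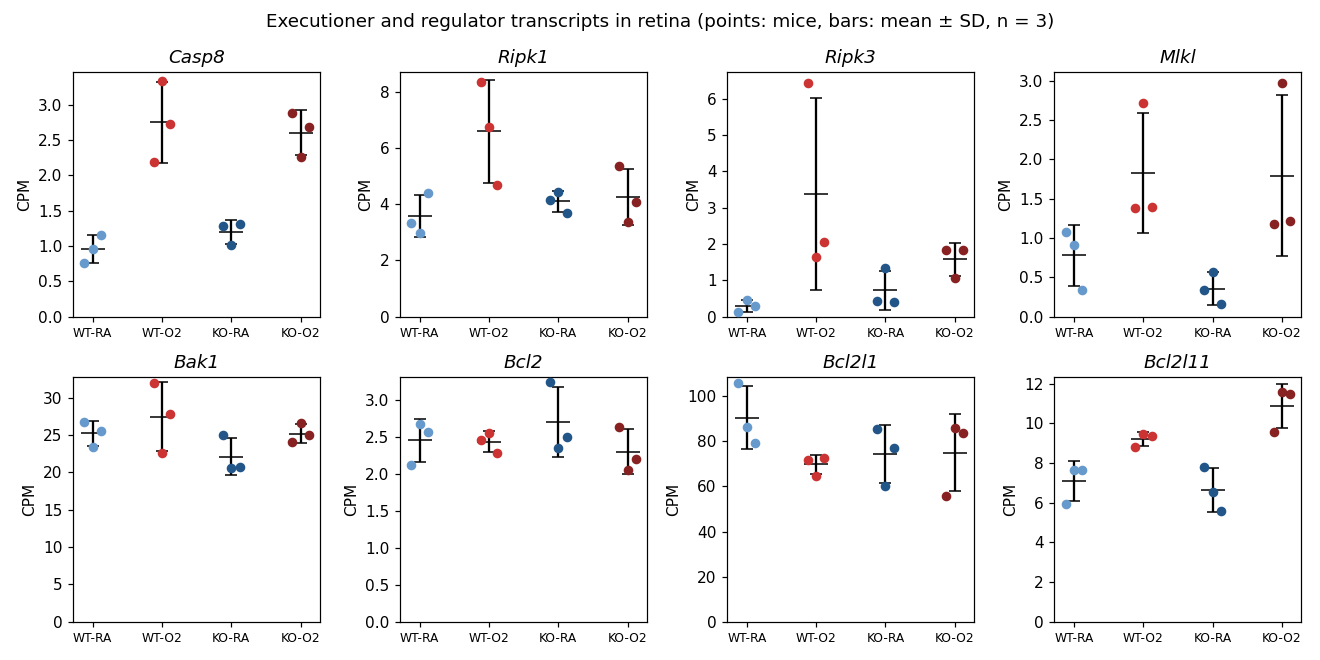
CPM of each gene in each of 12 retinas, with 1 panel per gene and a y axis that starts at 0. Points are mice and bars are the mean ± SD of 3 mice; Casp8 separates O2 from RA in both genotypes, while Ripk3 in WT-O2 mice spans 1.65 to 6.43 CPM.

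Casp8 was the gene with a call in both genotypes. It was at 0.760, 0.953 and 1.16 CPM in WT-RA and 2.19, 3.34 and 2.72 CPM in WT-O2 retinas. The GSDMD-KO retinas held 1.28, 1.01 and 1.31 CPM in RA and 2.88, 2.26 and 2.68 CPM in O2. Every O2 retina exceeded every RA retina of either genotype. The levels rest on 18.96 to 37.65 counts per RA library and 57.21 to 106.99 per O2 library. The log2 fold change was 1.52 (SE 0.27, adjusted p = 0.015) in WT and 1.11 (SE 0.26, adjusted p = 0.043) in GSDMD-KO retinas. Without the 3 lens-rich retinas, with only replicate 1 left in WT-RA, it was 1.85 in WT and 1.18 in GSDMD-KO retinas. The GSDMD-KO call was lost without KO-RA replicate 1 or 2 or KO-O2 replicate 2 or 3 (adjusted p = 0.104 to 0.124).

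Ripk3 rose in WT retinas from 0.120, 0.457 and 0.300 to 6.43, 1.65 and 2.04 CPM, with WT-O2 replicate 1 far above the other O2 retinas. Counts were 3.36 to 11.8 per WT-RA and 52.66 to 167.21 per WT-O2 library, so the fold depends on few RA reads. Its log2 fold change was 3.50 (SE 0.71, adjusted p = 0.030). It did not pass without WT-O2 replicate 1 (2.64, adjusted p = 0.102), without WT-RA replicate 1 (3.13, adjusted p = 0.115) or with limma's voom (3.27, adjusted p = 0.18). Without the lens-rich retinas, with only replicate 1 left in WT-RA, the log2 fold change was 4.76. In GSDMD-KO retinas it was at 0.439, 1.35 and 0.397 CPM in RA and 1.84, 1.06 and 1.83 CPM in O2, which overlapped (adjusted p = 0.37).

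Mlkl was at 1.08, 0.915 and 0.343 CPM in WT-RA and 1.39, 2.71 and 1.40 CPM in WT-O2 retinas, groups that did not overlap but did not pass (log2 fold change 1.23, SE 0.59, adjusted p = 0.31). It rose in GSDMD-KO retinas, from 0.338, 0.572 and 0.159 to 1.18, 2.97 and 1.22 CPM. This is a log2 fold change of 2.31 (SE 0.61, adjusted p = 0.062). The KO-RA libraries held 3.56 to 17.22 counts of it. It did not pass without KO-O2 replicate 2 (1.73, adjusted p = 0.25), KO-RA replicate 1 (2.27, adjusted p = 0.17) or KO-RA replicate 3 (1.97, adjusted p = 0.16). Without the lens-rich retinas the log2 fold change was 1.97.

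Ripk1 was at 3.32, 2.97 and 4.41 CPM in WT-RA and 8.35, 6.74 and 4.70 CPM in WT-O2 retinas. WT-O2 replicate 3 stood just above WT-RA replicate 3. The log2 fold change was 0.89 (SE 0.25, adjusted p = 0.095), and it passed in only 8 of 25 alternatives. Without the lens-rich retinas it was 0.98. The call was lost on leaving out any of 9 libraries, among them WT-RA replicate 1 or 2 and WT-O2 replicate 1 or 2 (adjusted p = 0.23 to 0.28). The GSDMD-KO retinas held 4.16, 4.44 and 3.69 CPM in RA and 5.34, 3.35 and 4.07 CPM in O2 (adjusted p = 0.94).

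Bcl2l11 was higher in O2 than in RA retinas, where it fell in the lung. It was at 5.92, 7.66 and 7.67 CPM in WT-RA and 8.81, 9.45 and 9.36 CPM in WT-O2 retinas, which did not overlap and did not pass (log2 fold change 0.38, SE 0.16, adjusted p = 0.24). The GSDMD-KO retinas rose from 7.81, 6.56 and 5.56 to 9.58, 11.6 and 11.5 CPM. Their log2 fold change was 0.71 (SE 0.16, adjusted p = 0.034). It was 0.60 without the lens-rich retinas. It was also 0.60 without KO-RA replicate 3 (adjusted p = 0.107) and 0.67 without KO-O2 replicate 2 (adjusted p = 0.14), and passed in neither of these fits.

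The remaining members did not pass in the retina. Bcl2l1 was at 105.9, 86.2 and 79.1 CPM in WT-RA and 71.9, 64.8 and 72.5 CPM in WT-O2 retinas, lower in each O2 mouse than in each RA mouse (log2 fold change -0.37, SE 0.18, adjusted p = 0.31). In GSDMD-KO retinas it ranged from 60.3 to 85.3 CPM in RA and from 55.6 to 86.0 CPM in O2. Bak1 lay between 20.6 and 31.9 CPM and Bcl2 between 2.05 and 3.24 CPM in all 12 retinas, with overlapping groups.

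Markers of other cells moved with the retinal rises. The 10 macrophage and microglia markers summed to 46.0 to 62.8 CPM in WT-RA and 40.5 to 62.7 CPM in KO-RA, and to 91.0 to 130.8 CPM in WT-O2 and 88.0 to 122.7 CPM in KO-O2 retinas. The 7 endothelial markers stood at 108.8 to 144.3 CPM in the RA and 190.2 to 260.3 CPM in the O2 retinas. Of the macrophage and microglia list 4 of 10 markers rose in each genotype, and of the endothelial list 6 of 7 rose in WT and 5 of 7 in GSDMD-KO retinas. Proliferation markers (5 genes) summed to 2.32 to 7.02 CPM in WT-RA and 16.6 to 27.1 CPM in WT-O2, and to 2.50 to 6.00 CPM in KO-RA and 6.87 to 12.1 CPM in KO-O2 retinas, with 4 of 5 risen in WT and 1 of 5 in GSDMD-KO mice. The sums of 5 Mueller glia and 7 retinal ganglion cell markers were lower in O2 than in RA retinas without overlap in either genotype, with 2 of 5 and 2 of 7 markers fallen in each and 1 Mueller glia marker risen. Mueller glia markers stood at 2017 to 2811 CPM in RA and 1537 to 1769 CPM in O2 in WT, and at 2133 to 2464 and 1812 to 2028 CPM in GSDMD-KO retinas. Erythroid markers stood at 697 to 1063 CPM in WT-RA, 983 to 1552 CPM in WT-O2, 527 to 854 CPM in KO-RA and 371 to 430 CPM in KO-O2 retinas. With the mean of their log2 levels as a covariate 1 of 8 genes passed in WT and 0 of 8 in GSDMD-KO retinas. Over all 19173 tested genes the passes also fell, from 990 to 299 in WT and from 1500 to 6 in GSDMD-KO retinas. No defining marker of the macrophage or endothelial list was at 0 in a group mean. The macrophage and microglia sums did not overlap between RA and O2 retinas in either genotype, so as a covariate they are hard to separate from exposure. With this covariate 0 of 8 genes passed in either genotype. The passes over all genes in that fit are not given here, so this count is not read as particular to the 8. The log2 fold change of Casp8 was then 1.50 in WT and 1.09 in GSDMD-KO retinas with SEs of 0.49 and 0.53, and that of Mlkl in GSDMD-KO retinas 2.72 with an SE of 1.40. The part of the cell makeup in these rises was not tested. With sex as a covariate Casp8 was 1.25 in WT (adjusted p = 0.1003) and 0.85 in GSDMD-KO retinas (adjusted p = 0.18), and Ripk1 0.92 in WT (adjusted p = 0.23). In that fit Ripk3 in WT, and Mlkl and Bcl2l11 in GSDMD-KO retinas, still passed.

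**Figure D4:**
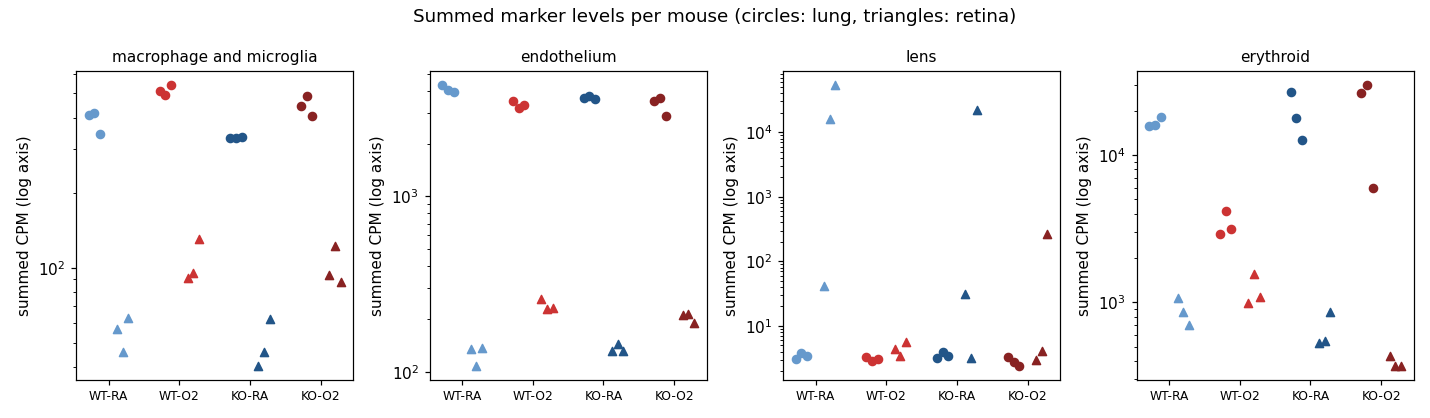
Summed CPM of 4 marker lists in each mouse on a log axis, with circles for lung and triangles for retina. Macrophage and microglia markers are higher in O2 in both tissues, and lens markers reach 54367 CPM in WT-RA retina replicate 3 against 2.91 CPM in the lowest retina.

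Of 20 tested genes of the death receptor complexes 3 passed in each genotype of the retina, beside 5.16% of all genes in WT and 7.82% in GSDMD-KO retinas. Birc3, a ubiquitin ligase that restrains RIPK1, rose by 1.74 (SE 0.30, adjusted p = 0.014) and Tnfrsf1b by 1.55 in WT retinas, and Sharpin fell by 0.37 on the log2 scale. In GSDMD-KO retinas Tnfrsf1a, the first TNF receptor, rose by 1.02, and Tnfaip3 and Cyld, both deubiquitinases of the TNF complex, fell by 0.61 and 0.45 on the log2 scale. Of 7 necroptosis triggers, Zbp1 rose by 2.53 (SE 0.74, adjusted p = 0.083) in GSDMD-KO retinas, and 0 passed in WT retinas (edgeR, 0 at an unadjusted p under 0.05). Of the BH3-only relatives Bbc3, a p53 target also called PUMA, rose by 1.09 in GSDMD-KO retinas, of the pro-survival relatives Bcl2l10 rose by 1.70, and among 13 genes of the apoptosome Dffb rose by 0.61 and Xiap, a caspase inhibitor, fell by 0.69 on the log2 scale. In WT retinas none of those 3 lists held a call (edgeR, with 0, 2 and 1 genes at an unadjusted p under 0.05). Neither Bax nor Bok passed in either genotype. Calls in WT or GSDMD-KO retinas alone are not a difference between genotypes, which is tested below.

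Genotype left no call in the retina either. Between KO-O2 and WT-O2 retinas 0 of 8 passed with edgeR, DESeq2 or voom. Of all 19173 genes, 244 (1.27%) passed with edgeR, 1001 with DESeq2 and 291 with voom. Ripk1 was at an unadjusted p under 0.05 (12.6% of all genes), at -0.63 (SE 0.25, adjusted p = 0.32), and the groups did not overlap for Bcl2l11 (19.9% of all genes). Between KO-RA and WT-RA retinas 0 of 8 passed with any of the 3 tools. Of all genes 0.00522% passed with edgeR, 758 genes with DESeq2 and 1 with voom. In the edgeR fit 0 of 8 were at an unadjusted p under 0.05 (12.7% of all genes), and 0 had groups without overlap (17.7%). The nearest were Ripk3 at 1.30 (SE 0.69, adjusted p = 0.46) and Mlkl at -1.11 (SE 0.61, adjusted p = 0.47). The interaction passed for 0 of 8 with any of the 3 tools. Over all genes it passed for 0.00522% with edgeR, for 569 genes with DESeq2 and for 1 with voom. It was at an unadjusted p under 0.05 for 2 of 8 (10.6% of all genes), Ripk3 at -2.40 (SE 0.94, adjusted p = 0.40) and Ripk1 at -0.83 (SE 0.35, adjusted p = 0.44). The different sets of 3 genes called in WT and in GSDMD-KO retinas are therefore not shown to be genotype effects. Of the surrounding lists, the interaction passed for 0 of 20 death receptor, 7 necroptosis, 7 BH3-only, 4 pro-survival and 13 apoptosome genes. None of these passed between KO-O2 and WT-O2 retinas. Their calls in WT or GSDMD-KO retinas alone are likewise not shown to be genotype effects.

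Ratios between members within a library need no scaling across libraries, and they are given as descriptions. In the lung the Mlkl to Casp8 ratio was 0.196 ± 0.017 in WT-RA and 0.631 ± 0.013 in WT-O2 mice (mean ± SD of 3 mice, as for the ratios that follow). The KO-RA lungs had 0.223 ± 0.019 and the KO-O2 lungs 0.505 ± 0.027. The KO-O2 lungs lay below the WT-O2 lungs, the highest at 0.536 against the lowest at 0.622. Neither gene passed between these groups (edgeR, adjusted p = 0.76 for Mlkl and 0.97 for Casp8). How often ratios of other gene pairs do not overlap was not computed for any ratio given here. Among single genes 12.2% did not overlap between KO-O2 and WT-O2 lungs. The Bcl2l11 to Bcl2l1 ratio was 0.352 ± 0.025 in RA and 0.103 ± 0.0084 in O2 in WT lungs, and 0.319 ± 0.080 and 0.145 ± 0.013 in GSDMD-KO lungs. In the retina the same ratio was higher in O2, at 0.0806 ± 0.022 in WT-RA and 0.133 ± 0.012 in WT-O2, and at 0.0908 ± 0.018 in KO-RA and 0.148 ± 0.021 in KO-O2 mice, with no overlap between RA and O2 in either genotype. The Bak1 to Bcl2l1 ratio was 0.798 ± 0.11 in WT-RA and 0.658 ± 0.058 in WT-O2 lungs, and 0.283 ± 0.037 and 0.393 ± 0.048 in WT retinas. It overlapped between RA and O2 except in WT retinas. The Mlkl to Casp8 ratio of the retina ranged from 0.121 to 1.42 and overlapped between RA and O2 in both genotypes.

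**Figure D5:**
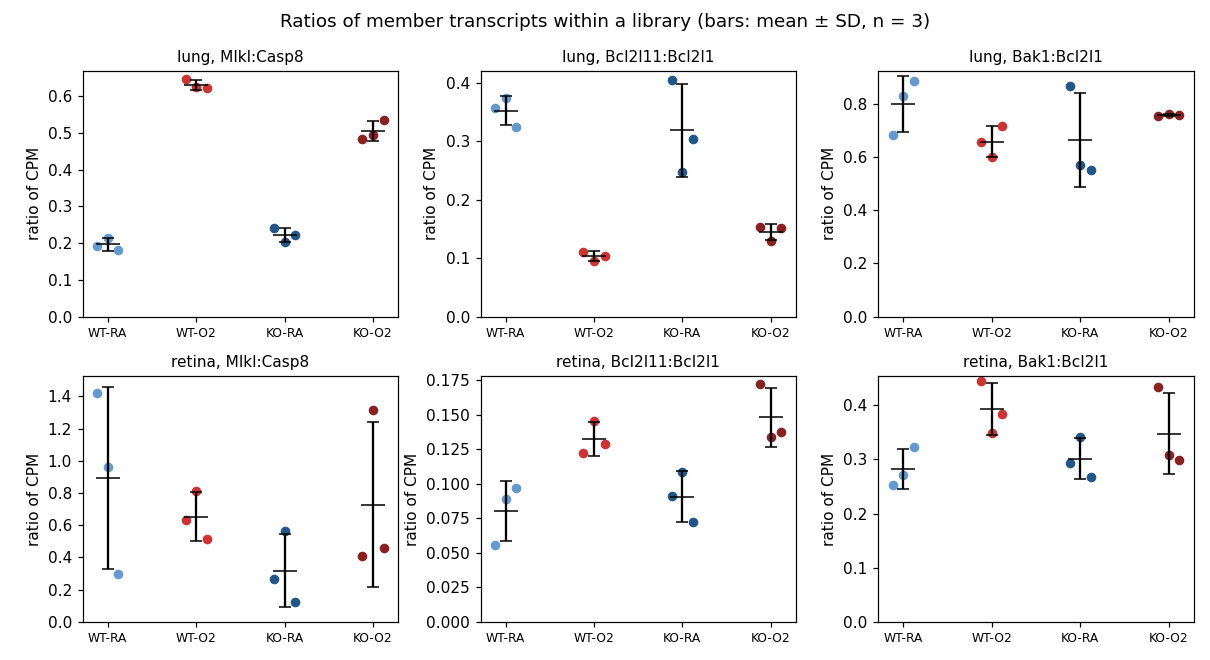
Ratio of CPM of 2 genes in each library (y axis from 0), with lung in the upper and retina in the lower row, points for mice and bars for the mean ± SD of 3 mice. The Bcl2l11 to Bcl2l1 ratio is lower in O2 lungs (0.103 in WT-O2) than in RA lungs (0.352 in WT-RA) and higher in O2 retinas (0.133) than in RA retinas (0.0806).

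Over the 12 libraries of a tissue, and leaving out genes whose mean was under 5 CPM, the log2 level of lung Mlkl was most like Masp1 (Pearson's r 0.994) and Rpn2 (0.991). Lung Bak1 was most like Tnfrsf1a (0.990), Ripk3 like Mdh2 (0.985) and Bcl2l1 like B4galt1 (0.950). Casp8 followed Psme2 and Psmb8 (0.897 and 0.886) in the lung and Hsd17b2 (0.960) in the retina. Retinal Mlkl was most like Ptprn and Plvap (0.958 and 0.956), the latter an endothelial gene, and retinal Ripk3 like Tbc1d31 (0.932). The points share the exposure groups and were picked from 12170 lung and 11939 retina genes, so high values are not evidence of a link.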

How the data were processed

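RNA of 12 lungs and 12 retinas, 1 mouse each, was sequenced at BGI as paired reads. Per the submitters' processing notes reads were assigned with kallisto, and per the paper's methods summed per gene with tximport, whose settings are not given in the sources used here. The notes name the build mm10 and the methods GRCm39. For each tissue the authors deposited a single matrix of expected counts, without scaling for depth. Whole numbers (within 0.001) made up 44.9% of nonzero lung values and 0.350% of nonzero retina values, so retina counts may have been scaled within a library, and each tissue was tested on its own. Intervals between mice rest on 3 mice per group, and levels of a few CPM carry a large counting error.

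Groups came from genotype and exposure on the labels. Rounded counts entered edgeR 4.0.16 (R 4.3.3): TMM factors, filterByExpr by group, estimateDisp, glmQLFit with robust=TRUE and quasi-likelihood F-tests, with the 12 libraries of a tissue in 1 fit and 5 contrasts. A gene passed at an adjusted p under 0.1 (Benjamini-Hochberg, all tested genes). The study's rule also asks for a fold of at least 2, given separately. CPM uses TMM factors, and each SE was derived from the log2 fold change and its F value. The code was tested on simulated counts. Symbols came from a GRCm38 annotation by gene identifier, matching 35816 and 35968 identifiers. DESeq2 1.42.0, limma 3.58.1 (voom), other scaling, filters and covariates, and leaving out each mouse were alternatives.

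The 8 genes, the pathway lists, the marker lists and the tests were chosen with earlier results of these data known. The genes named are the 8, Gsdmd, at most 3 genes of smallest p per pathway list and contrast among those that passed, and the 2 most alike genes per member, of which those of lung Bcl2l11 are not reported here. Pathway lists cover death receptor complexes, necroptosis triggers and regulators, pro-survival BCL2 relatives, BAX-type effectors, BH3-only relatives, and the apoptosome and executioner caspases. Marker genes named for their own values were chosen after those were seen.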

Additional observations from a re-analysis of the deposited data

Results flagged for a closer look

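The log2 fold changes of Casp8, Bcl2l1 and Bcl2l11 in WT mice, and of Bcl2l11 in GSDMD-KO mice, had opposite signs in the lung and in the retina, with no overlap between O2 and RA mice in either tissue. Casp8 and Bcl2l1 overlapped in GSDMD-KO lungs, and Bcl2l1 also in GSDMD-KO retinas. Groups without overlap made up 49.8% of all genes in WT lungs and 24.0% in WT retinas, and 52.4% and 26.2% in GSDMD-KO lungs and retinas. The share of all genes with no overlap in both tissues and opposite signs was not computed. The difference between the tissues was not tested, since the tables were made and normalized separately, and age, oxygen level and recovery time also differ between them. Casp8 had a log2 fold change of -0.25 in the lung and 1.52 in the retina of WT mice. Its lung call was lost on leaving out some single libraries (edgeR, adjusted p up to 0.12). Bcl2l1 had 0.74 in the lung and -0.37 in the retina of WT mice, the latter at an adjusted p of 0.31. Bcl2l11 had -1.03 in the lung and 0.38 in the retina of WT mice, the latter at an adjusted p of 0.24. In GSDMD-KO mice it had -0.87 in the lung and 0.71 in the retina.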

How the results depend on the processing

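No paired analysis was possible because the labels give the mice no replicate numbers that groups share. Genotype and interaction counts stayed at 0 of 8 in both tissues under every alternative run. Lung counts, 7 of 8 in WT and 5 of 8 in GSDMD-KO mice, became 2 and 1 with a fold change of at least 2. They became 4 and 2 with the macrophage covariate, which left 3143 and 2425 of all 16819 genes in place of 8268 and 7857. With the sex covariate 4 genes rose and 2 fell in WT lungs, and 3 rose and 1 fell in GSDMD-KO lungs. With a mouse left out the lung counts ran from 5 to 7 and from 4 to 5. Retina counts, 3 of 8 in each genotype, became 1 in WT with limma's voom, with the sex covariate and with the lens covariate. They became 1 in WT and 0 in GSDMD-KO mice with the erythroid covariate, and 0 and 0 with the macrophage and microglia covariate. For the latter, passes over all retina genes are not given here. With a mouse left out they ran from 1 to 3 in WT and from 0 to 3 in GSDMD-KO mice. No count is given without the lens-rich retinas, which leaves only replicate 1 in WT-RA. The covariates of lens and macrophage markers and the removal of lens-rich retinas were chosen after seeing the data, and the cause of these changes was not tested. None of the printed log2 fold changes of the 8 genes changed sign under any alternative. RLE and upper-quartile factors kept the number of calls in every contrast. Depth limits retinal Ripk3 and Mlkl, which fell to 3.36 and 3.56 counts in a library.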
